A study of Homo sapiens with 2 samples.

Results

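The SLC25 family comprises the carrier proteins that move metabolites, nucleotides, cofactors and ions across the inner membrane of mitochondria. Its members were taken as the genes whose symbol is SLC25A followed by a number, with antisense genes and pseudogenes left out, and 44 of the 48 such genes in the RefSeq gene table had a transcript cluster of their own on the array. The others were not analysed here as members. The 44 members are among 22411 genes measured, each by 1 transcript cluster, and lie on 18 chromosomes. The rule reads the symbols alone.

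Most SLC25 proteins consist of repeats of a membrane module and work as exchangers that alternate between the cytosolic and the matrix side. They supply ATP synthesis with ADP and phosphate, carry reducing equivalents and citric acid cycle acids, bring in fatty acids as carnitine esters, and deliver cofactors, glutathione and iron to the matrix. In the kidney tubule, which depends on mitochondrial ATP for transport, these carriers are part of the basic energy supply, and clear-cell carcinomas of the kidney are known for a turn away from mitochondrial respiration.

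The cells were 769-P, an established human line derived from a kidney carcinoma of the clear-cell type, labelled as a non-metastatic tumour. The control cells carried the lentiviral vector plv-EGFP without an insert, and the other cells carried pLV-EGFP-FOXK2, the same vector with the coding sequence of FOXK2, a forkhead transcription factor. Each group was represented by 1 biotin-labelled Affymetrix whole-transcript array, with no time after transduction given in the labels. The vector keeps expressing its insert, and the labels do not say whether each line was a pool or a clone. With 1 array per group there was no error estimate and no test, which leaves each difference given here as a single, unreplicated measurement, and the number of arrays limits the precision.

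Values are log2 expression values as deposited, and a difference is the value of the FOXK2 array less that of the empty vector array. FOXK2 itself had a log2 value of 9.36 with empty vector and 13.82 with FOXK2. A gene was counted only if its mean over both arrays reached 5.24, the median of all transcript clusters with a single gene symbol, called the level limit. This applied to 11263 genes. Of 10 listed markers of renal tubule and clear-cell carcinoma, all but CA9 were measured. The 9 measured markers all lay above the limit, at 8.05 to 16.20. Of these, the endocytic receptors CUBN and LRP2 differed between the arrays by 3.43 and 3.05, and the brush border peptidase ANPEP by 0.90, and the part of this in the carriers' differences was not tested. Markers of leukocytes, endothelium, muscle with brown fat, and brain all lay below it. Of the 3 liver markers, CPS1, the first enzyme of the urea cycle, exceeded the limit with values of 8.67 and 7.39.

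SLC25A39 was the only carrier that differed by at least 2-fold between the arrays, and it was lower with FOXK2. 31 of the 44 members lay above the level limit, of which 10 (32.3%) had positive and 19 (61.3%) negative differences, while SLC25A1 and SLC25A51 had exactly the same value in both arrays. Over all genes above the limit, 43.3% were positive and 55.6% negative. 1 of the 31 (3.23%) was at least 2-fold lower, against 3.05% of all genes above the limit, and 0 were at least 2-fold higher, against 2.13%. At 1.5-fold, 3 members (9.68%) were lower against 10.6% of all genes, and 1 (3.23%) was higher against 6.09%. These shares rest on 1 and 3 members on the lower side and on 0 and 1 member on the higher side. With counts this small, neither side shows whether the family differs from all genes.

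The median difference was -0.051 over the 31 members and -0.050 over all genes above the limit. Over all 44 members it was -0.022, against 0.020 over all 22411 genes. Differences of at most 0.25 in size were found in 19 of the 31 members (61.3%) and in 51.5% of all genes above the limit. The middle 50% of the members ran from -0.36 to 0.017, and the extremes were -1.30 for SLC25A39 and 0.69 for SLC25A40. Genes of the other SLC families, which carry solutes across other membranes, numbered 281, with 129 above the limit. Their median difference above the limit was -0.005. Of the 129, 9 (6.98%) were at least 2-fold higher and 6 (4.65%) at least 2-fold lower. Over all genes above the limit these shares were 2.13% and 3.05%.

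**Figure D1:**
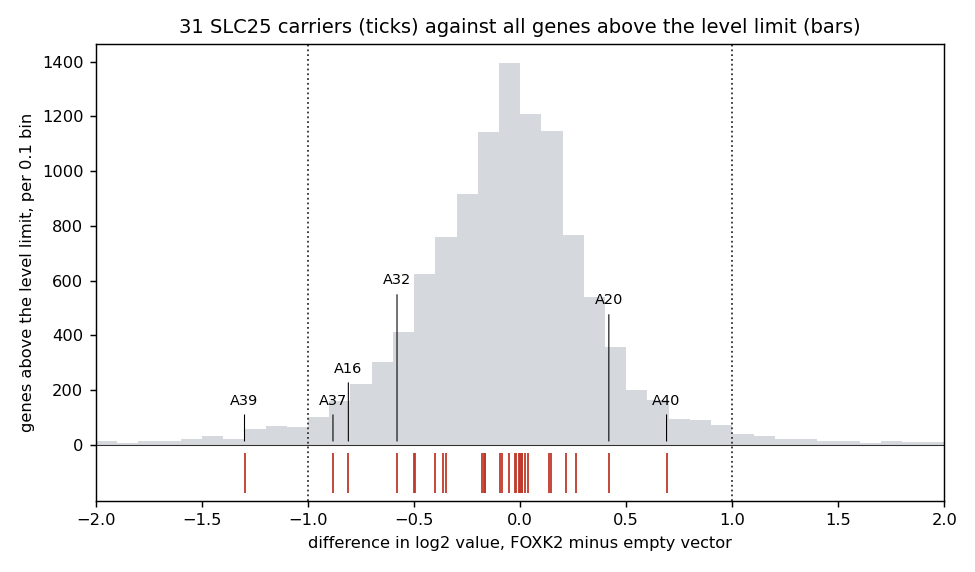
Differences in log2 value (x axis, FOXK2 minus empty vector, drawn from -2 to 2) of the 31 SLC25 carriers above the level limit (red ticks) under a histogram of all 11263 genes above it (grey bars, genes per bin). Dotted lines mark 2-fold, and 93 genes lie outside the drawn range. SLC25A39 at -1.30 is the only carrier beyond a dotted line.

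The glutathione carriers SLC25A39 and SLC25A40 had the lowest and the highest difference of the family. SLC25A39 brings glutathione, the main thiol antioxidant, into the matrix, and SLC25A40 is its close relative, known to act on the same cargo. SLC25A39 had a value of 11.32 with empty vector and 10.02 with FOXK2. This is a difference of -1.30, or 2.46-fold lower, and ranked 154 from the lowest among the 11263 genes, so that 1.37% of these genes had a difference as low or lower. SLC25A40 had a value of 9.60 with empty vector and 10.29 with FOXK2. Its difference of 0.69, or 1.61-fold higher, was equalled or exceeded by 4.52% of genes. The difference of SLC25A40 stood 1.99 above that of SLC25A39. Under the 6 other ways of processing, this gap lay between 1.87 and 1.99. Median centring shifts all genes alike, and the brightest transcript cluster and symbols without an update left both values unchanged. These settings therefore could not alter the gap. The neighbours of SLC25A39 on chromosome 17 had a median difference of 0.049, and those of SLC25A40 on chromosome 7 one of 0.17.

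Because FOXK2 binds the forkhead site, the 250 bases before the start site of these 2 genes are shown, with those of SLC25A20 and SLC25A46, the next highest carriers above the limit. They are taken from RefSeq on GRCh38.p14, read 5′ to 3′ on the strand of the gene. The windows are chr17:44324824-44325073 on the minus strand, chr7:87876361-87876610 on the minus strand, chr3:48898883-48899132 on the minus strand and chr5:110738757-110739006 on the plus strand. Capitals mark the letters CCGGAAG, or their reverse complement CTTCCGG, the core of the site of ETS factors such as GABPA. The choice extended the high end only, so these sequences do not compare higher with lower carriers. Of the lower carriers, SLC25A37, SLC25A16 and SLC25A32 had no window, and SLC25A36 and SLC25A10 had windows that are not shown.
SLC25A39: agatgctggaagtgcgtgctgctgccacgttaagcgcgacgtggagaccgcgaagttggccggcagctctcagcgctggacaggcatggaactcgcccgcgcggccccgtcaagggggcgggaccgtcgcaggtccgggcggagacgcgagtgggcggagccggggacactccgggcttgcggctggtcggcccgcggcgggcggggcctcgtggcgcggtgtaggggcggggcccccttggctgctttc
SLC25A40: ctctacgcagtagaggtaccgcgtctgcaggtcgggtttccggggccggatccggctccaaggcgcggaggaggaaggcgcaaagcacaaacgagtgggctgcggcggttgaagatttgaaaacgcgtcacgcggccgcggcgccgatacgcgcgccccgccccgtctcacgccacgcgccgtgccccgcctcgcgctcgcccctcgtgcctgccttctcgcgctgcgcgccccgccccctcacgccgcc
SLC25A20: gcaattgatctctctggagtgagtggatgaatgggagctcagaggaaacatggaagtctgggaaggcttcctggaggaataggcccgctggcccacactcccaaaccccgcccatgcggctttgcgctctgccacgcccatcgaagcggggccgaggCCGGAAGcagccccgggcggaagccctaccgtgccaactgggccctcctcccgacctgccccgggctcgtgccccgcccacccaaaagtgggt
SLC25A46: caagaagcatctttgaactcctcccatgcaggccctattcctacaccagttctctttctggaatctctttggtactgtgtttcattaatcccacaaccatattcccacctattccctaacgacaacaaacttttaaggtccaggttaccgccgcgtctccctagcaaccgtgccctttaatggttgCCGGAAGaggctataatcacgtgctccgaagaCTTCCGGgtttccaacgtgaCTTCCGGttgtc

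The forkhead letters GTAAACA, or TGTTTAC on the other strand, occurred in 0 of the 37 member promoters in the RefSeq table, each read over 300 bases, 250 before and 50 after the start site. They occurred in 2.61% of the 15842 promoters of protein-coding genes. The ETS core occurred in 8 of 37 (21.6%), against 14.2% of protein-coding promoters. SLC25A46 held it 3 times, at 64, 32 and 12 bases before the start site (-64, -32 and -12), and the other holders were SLC25A4, SLC25A14, SLC25A17, SLC25A20, SLC25A24, SLC25A38 and SLC25A47. The differences of these 8 genes ran from -0.35 for SLC25A4 to 0.42 for SLC25A20. The letters GCGCNTGCGC, the palindromic site of NRF1, a regulator of mitochondrial genes, with GCGCANGCGC on the other strand, occurred in SLC25A3, SLC25A11, SLC25A31 and SLC25A51. That is 10.8% of the 37, against 8.57% of protein-coding promoters. No member promoter held more than 1 kind of these motifs. SLC25A2, SLC25A16, SLC25A30, SLC25A32, SLC25A35, SLC25A37 and SLC25A41 were not matched. A match is a description of these letters only.

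Both iron carriers had negative differences. SLC25A37, mitoferrin-1, the main iron importer of red cell precursors, had a value of 7.31 with empty vector and 6.43 with FOXK2. Its difference of -0.88, or 1.84-fold lower, was the second lowest of the family, and 4.22% of genes above the limit were as low or lower. SLC25A28, mitoferrin-2, its counterpart in other tissues, had values of 6.37 and 6.19, a difference of -0.18. The neighbours of SLC25A28 on chromosome 10 stood at -0.31, so that after their subtraction it lay at 0.13. SLC25A38, which brings in glycine for the first step of haem synthesis, stood at 7.82 with empty vector and 7.96 with FOXK2.

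Of the carriers of nucleotides, coenzymes and vitamins, 8 of the 10 listed were measured and 7 lay above the limit. 6 of the 7 were negative and SLC25A51 stood at 0, beside 55.6% negative over all genes above the limit. The median of the 7 was -0.40, against -0.050 over all genes above the limit. These are only 7 genes with 1 array per group, and the contrast was not tested. Their differences after subtraction of neighbours are given below. SLC25A16, whose yeast relative is linked to coenzyme A in the matrix, had a value of 8.88 with empty vector and 8.07 with FOXK2. Its difference of -0.81 made it 1.75-fold lower. SLC25A32, the carrier of folate and of flavin cofactor, had values of 9.04 and 8.46, a difference of -0.58 just short of 1.5-fold. SLC25A36 and SLC25A33 both carry pyrimidine nucleotides. SLC25A36 went from 9.66 with empty vector to 9.15 with FOXK2, a difference of -0.50. SLC25A33 stood at 5.54 and 5.17, the latter, with FOXK2, under the level limit. SLC25A26, which brings in S-adenosylmethionine for methylation, stood at 6.25 and 5.85, a difference of -0.40.

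Some of these carriers lay in stretches of chromosome whose genes were lower as a group. The median difference of the 51 neighbouring genes was -0.33 around SLC25A36 and -0.35 around SLC25A26, both on chromosome 3. After its subtraction SLC25A36 stood at -0.17 and SLC25A26 at -0.053. SLC25A16 on chromosome 10 had neighbours at -0.15 and stood at -0.66 after subtraction. SLC25A32 had neighbours at -0.13 and stood at -0.45. SLC25A33 had neighbours at -0.037 and stood at -0.33. Copy number was not measured, and the part of the neighbourhood in these differences was not tested. SLC25A17, a carrier of coenzymes in the peroxisome membrane, stood at 7.41 and 7.36. Its difference of -0.051 became 0.016 after subtraction of its neighbours. SLC25A51, the importer of NAD, had 8.22 in both arrays, and lay at 0.22 after subtraction of its neighbours. SLC25A42, which carries coenzyme A, lay below the limit at 4.36 and 4.67.

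**Figure D2:**
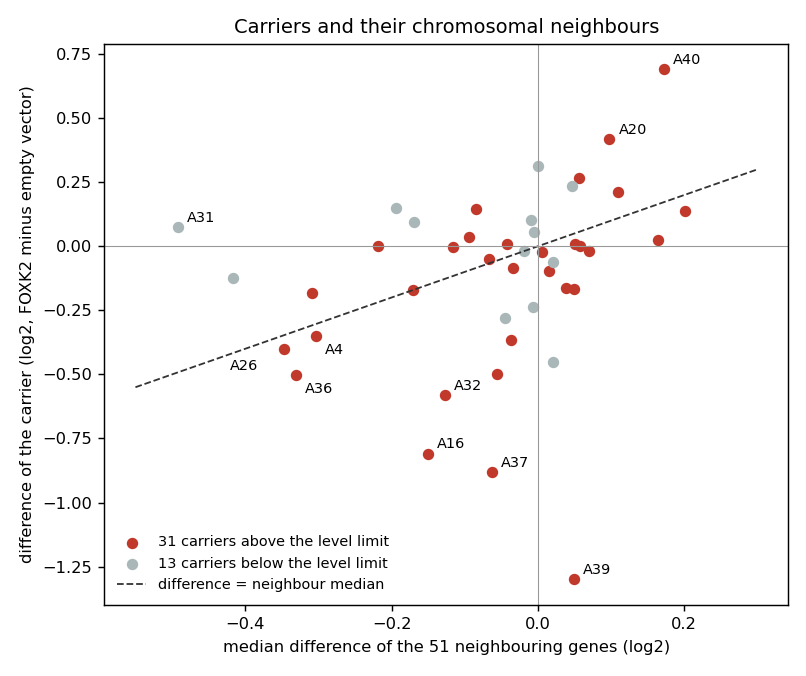
Difference of each carrier (y axis, log2, FOXK2 minus empty vector) against the median difference of its 51 neighbouring genes on the chromosome (x axis, log2), with carriers above the level limit in red and the 13 below it in grey. Points on the dashed line differ as their neighbours do. SLC25A26 (-0.40 with neighbours at -0.35) and SLC25A4 (-0.35 with neighbours at -0.30) lie close to the line, and SLC25A39, SLC25A37 and SLC25A16 lie well below it.

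Among the measured carriers at the core of ATP synthesis, only SLC25A4 differed by more than 0.25 in size. SLC25A5, the ADP/ATP carrier of dividing cells, had values of 11.83 with empty vector and 11.73 with FOXK2, a difference of -0.097. SLC25A4, the ADP/ATP carrier of heart and muscle, stood at 7.71 and 7.36. Its difference of -0.35 became -0.046 after subtraction of its neighbours on chromosome 4, whose median was -0.30. SLC25A31, the isoform of the testis, lay below the limit at 3.62 and 3.69. SLC25A3, which brings in phosphate and copper, stood at 13.78 and 13.61, a difference of -0.17. The sequences of the ADP/ATP carriers are close to each other, so probes may be shared among them and with SLC25A6, and the array values do not settle which gene gave the signal.

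The exchangers of ATP-magnesium for phosphate, which set the adenine nucleotide content of the matrix, pointed both ways. SLC25A24 had values of 11.03 and 11.24, a difference of 0.21, and SLC25A23 had values of 8.33 and 8.16, a difference of -0.17. SLC25A24 lay at 0.10 after subtraction of its neighbours and SLC25A23 at 0.001. SLC25A25 and SLC25A41 of the same group lay below the limit, at 4.89 and 4.77 and at 4.18 and 4.27, respectively.

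Among 9 carriers of citric acid cycle acids and related dicarboxylates, 5 lay above the limit. SLC25A10, which exchanges malate or succinate for phosphate, was the only one of the 5 with a difference over 0.25 in size. It had a value of 8.99 with empty vector and 8.49 with FOXK2, a difference of -0.50, and its neighbours stood at -0.055. SLC25A1, the citrate exporter that feeds fat synthesis, had 8.76 in both arrays. SLC25A11, which exchanges oxoglutarate for malate, stood at 9.37 and 9.38. SLC25A30, a carrier first found in kidney, stood at 10.97 and 10.99, and SLC25A14, a relative of the uncoupling proteins, at 6.55 and 6.47. SLC25A21, SLC25A27, SLC25A34 and SLC25A35 lay below the limit, with differences from -0.28 for SLC25A35 to 0.10 for SLC25A34.

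Of the 9 amino acid carriers measured, 5 lay above the limit, with a median of 0.010. The aspartate/glutamate carriers of the malate-aspartate shuttle hardly differed: SLC25A12, known as aralar, stood at 7.57 in both arrays to 2 decimals, with a difference of -0.004. SLC25A13, known as citrin, stood at 10.34 and 10.35. SLC25A22, a glutamate carrier, stood at 5.66 and 5.70, and SLC25A44, the carrier of branched-chain amino acids, differed by -0.024 from a value of 7.03. SLC25A2, SLC25A18, SLC25A29 and SLC25A48 lay below the limit. SLC25A29, a carrier of basic amino acids, had the largest difference of the 13 members below it, with 5.05 and 4.60, and whether such values lay above background is not known.

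SLC25A20, the carnitine-acylcarnitine carrier that brings long-chain fatty acids in for oxidation, was higher with FOXK2. It had a value of 6.10 with empty vector and 6.52 with FOXK2. The difference of 0.42, or 1.34-fold, was reached or exceeded by 10.1% of genes above the limit and stood at 0.32 after subtraction of its neighbours. SLC25A46, an outer membrane protein that acts in the fusion and fission of mitochondria rather than as a known carrier, had values of 10.66 and 10.92, a difference of 0.26. SLC25A43, SLC25A45 and SLC25A53, whose cargo is given no role here, differed by -0.16, 0.14 and -0.020. SLC25A47, a carrier of liver, lay below the limit at 4.63 and 4.57.

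**Figure D3:**
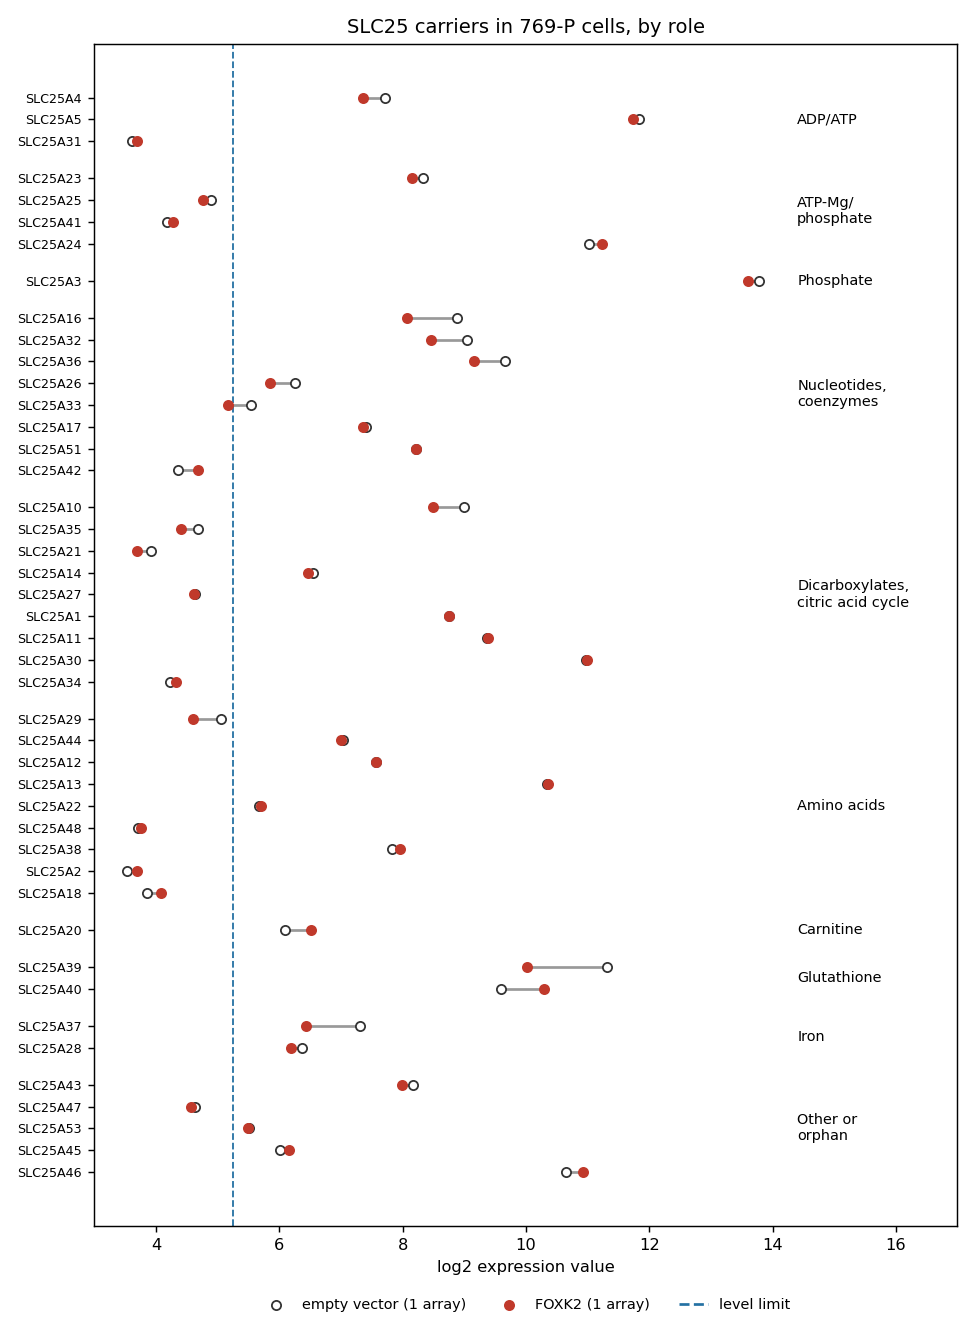
Log2 expression value (x axis) of the 44 carriers in the empty vector array (open circles) and the FOXK2 array (red circles), grouped by role, with the level limit of 5.24 as a dashed line. The longest bars are those of SLC25A39, SLC25A37, SLC25A16 and SLC25A40, and only SLC25A40 among these has the red circle on the right.

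Among family relatives with other symbols, MTCH2, an outer membrane insertase of the SLC25 fold, had values of 14.24 and 13.75, a difference of -0.49, and MTCH1 had one of -0.066. The uncoupling proteins UCP1, UCP2 and UCP3 lay below the limit. In the import pathway of carriers, 9 of 10 listed genes were measured, 8 lay above the limit and 0 reached 1.5-fold, which 6.09% of all genes did upwards and 10.6% downwards, so that 0 of 8 sets the list apart in no way. Their median above the limit was -0.076. The largest differences were -0.40 for TIMM13 and -0.23 for TIMM8B, both small chaperones of the intermembrane space, and -0.28 for AGK, a kinase that is also part of the TIM22 complex. TIMM22, the insertion channel itself, differed by 0.024.

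Of 11 measured genes for other passage across the mitochondrial membranes, 0 reached 2-fold, beside 2.13% of all genes that were higher and 3.05% that were lower, a count that says nothing about the list. MPC1, a subunit of the pyruvate carrier, stood at 7.72 and 8.48 and was 1.69-fold higher with FOXK2, while its partner MPC2 differed by 0.23. MCU, the calcium uniporter, stood at 10.01 and 9.16 and was 1.81-fold lower. SFXN2, a sideroflexin, was 1.53-fold lower with values of 6.40 and 5.78. MCU and SFXN2 both lie on chromosome 10, where their neighbours stood at -0.25 and -0.14.

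The enzymes that use the carriers' cargo differed by list. For SLC25A20, all 3 carnitine enzymes had positive differences, with CPT1A, which forms acylcarnitine at the outer membrane, at 0.53, CPT2 at 0.32 and CRAT at 0.27. For the citrate and citric acid cycle list, 6 of 7 measured genes were on the positive side, with a median of 0.36. Over all genes above the limit, 43.3% had positive differences and the median was -0.050, and the same background applies to the carnitine enzymes. ACLY, which cleaves exported citrate for fat synthesis, stood at 0.55, OGDH, the oxoglutarate dehydrogenase, at 0.52 and ACO1, the cytosolic aconitase, at 0.51. None of the genes in these lists reached 1.5-fold, which 6.09% of all genes above the limit did upwards and 10.6% downwards. With so few genes, this count sets the lists apart in no way. The malate-aspartate enzymes were split, with MDH1 at 0.26, GOT1 at 0.24 and GOT2 at -0.20.

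In the haem and iron list, FECH, which inserts iron to form haem, had values of 8.17 and 7.37 and was 1.74-fold lower. Its neighbours on chromosome 18 stood at -0.23, and FECH stood at -0.57 after their subtraction. ALAS1, the first enzyme of haem synthesis, differed by 0.32 and NFS1, which supplies sulphur to iron-sulphur clusters, by 0.21. In the list of glutamine, proline and 1-carbon enzymes, ALDH18A1 of proline synthesis stood at -0.59, in a stretch of chromosome 10 with neighbours at -0.46. PYCR1, the last enzyme of that pathway, stood at -0.39, and MTHFD2, of mitochondrial folate metabolism, at -0.29.

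Among regulators of mitochondrial biogenesis, 1 of 5 above the limit was at least 2-fold lower, against 3.05% of all genes. PPRC1, a coactivator related to PGC-1alpha, had a value of 7.94 with empty vector and 6.68 with FOXK2. This is a difference of -1.26, or 2.40-fold lower, and -1.05 after subtraction of its neighbours on chromosome 10. GABPA, the ETS factor of mitochondrial genes, differed by -0.35 and TFAM, the mitochondrial DNA packaging factor, by -0.19. PPARGC1A, which encodes PGC-1alpha, stood at 11.06 and 11.13, a difference of 0.066.

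**Figure D4:**
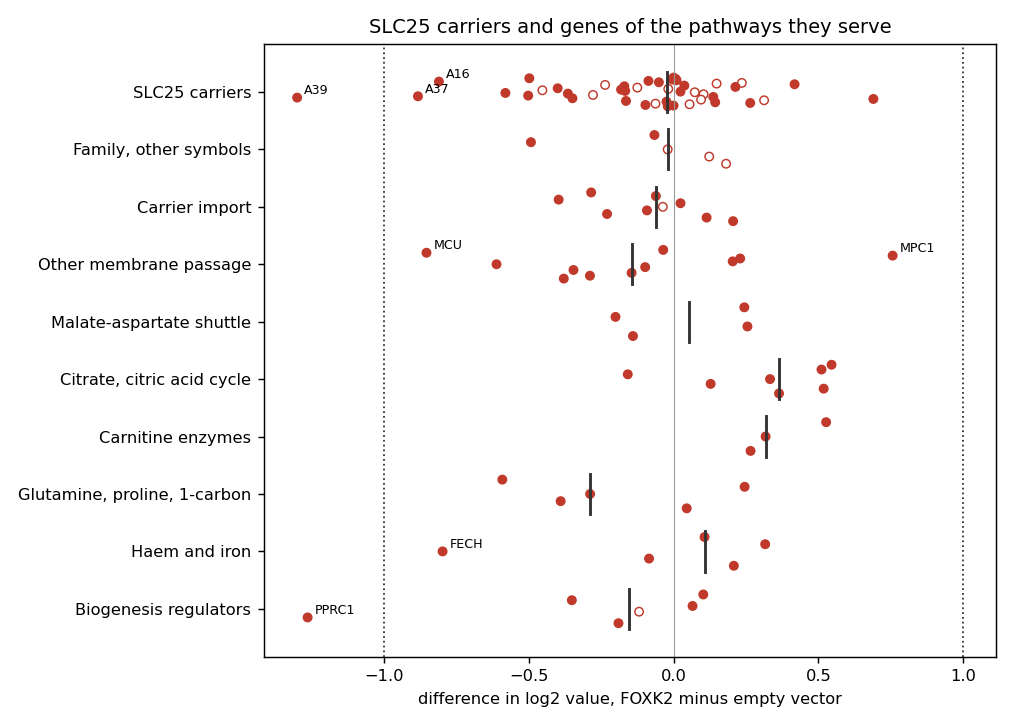
Differences in log2 value (x axis, FOXK2 minus empty vector) of the 44 SLC25 carriers and of 9 lists of genes that serve or use them, 1 point per gene, filled where the gene lay above the level limit. Black bars are medians of all measured genes of a list and dotted lines mark 2-fold. SLC25A39 and PPRC1 are the only points beyond a dotted line.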

How the data were processed

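RNA of 2 samples was measured, 1 with empty vector and 1 with FOXK2. Trizol extraction of total RNA was followed by amplification and biotin labelling (WT PLUS kit), per the labels' protocols. Affymetrix Expression Console is named in the submitters' processing notes. Its version, the summary algorithm and the build of the genome are not given in the sources used. The deposited values are log2 expression values of 67528 transcript clusters on each array. Their range, 2.13 to 19.93, is the basis for calling the scale log2. The 2 arrays correlated with Pearson's r of 0.988 over transcript clusters, a description since these are not independent. Probe intensities and detection calls were not used here, so whether a value lay above background is not known.

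Names came from the platform annotation, in which 23781 transcript clusters have 1 gene symbol, 1543 several (left out) and 42204 none. Symbols were updated with the RefSeq table of GRCh38.p14 by Entrez identifier (21497), current symbol (1974) or older symbol (306), and 4 were kept. As no build is named for the array, no coordinates of its transcript clusters are given. The RefSeq table supplied names, gene type, gene order and the promoter windows on GRCh38.p14. Transcript clusters of a gene were averaged and no further normalization was applied. In 88 genes more than 1 transcript cluster lay above the limit (copies on alternative haplotypes or on Y left out), and within such a gene the differences disagreed by a median of 0.22.

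Genes above the level limit were called from a 2-fold difference upwards in either direction. The neighbour median is the median difference of the 51 nearest genes above the limit in RefSeq order, without the gene itself. All measured carriers could be named, and from each further list up to 3 genes above the limit with the largest differences in size. TIMM22, MPC2, UCP1, UCP2, UCP3 and PPARGC1A were named outside this rule, after their values were seen. The members and lists were chosen with earlier results of these data known. The ETS and NRF1 motifs were added later than the forkhead motif. Alternatives were median centring, removal of a loess trend (span 0.3), quantile normalization, subtraction of the neighbour median, the brightest transcript cluster, symbols without an update, other level limits and other fold limits. The work was done in Python 3.11.15 with statsmodels 0.14.6, pandas 2.3.3 and numpy 2.4.6, and tested on simulated data.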

Additional observations from a re-analysis of the deposited data

How the results depend on the processing

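The count of carriers at least 2-fold lower stayed at 1 and that of carriers at least 2-fold higher at 0 under the 6 other ways of processing and under the other level limits. Over all genes above the limit, the ways of processing gave 224 to 271 genes at least 2-fold higher and 240 to 382 lower. With a 1.5-fold limit, 1 carrier (3.23%) was higher and 3 (9.68%) were lower, beside 6.09% and 10.6% of all genes above the limit. With a 3-fold limit 0 carriers were lower, and the share of all genes at that limit was not counted. SLC25A39 ranged from -1.35 to -1.25, SLC25A37 from -0.92 to -0.82, SLC25A16 from -0.85 to -0.66 and SLC25A40 from 0.52 to 0.75. The number of positive differences was 17 of 44, between 13 after centring and 21 after subtraction of the neighbour median. It was 10 among the 31 carriers above the level limit, and 7 with that limit at the upper quartile of 7.71. The family's median lay between -0.061 and -0.022. 30 of the 44 carriers kept their sign in all 7 settings. Among the 31 carriers above the level limit, 19 did. The brightest transcript cluster and symbols without an update left the value of every carrier unchanged, since each has a single transcript cluster and a current symbol. These settings therefore could not alter a sign or a count of carriers. Subtraction of the neighbour median moved 7 carriers by more than 0.217, the median disagreement between transcript clusters of a gene. These were SLC25A4, SLC25A25, SLC25A26, SLC25A28, SLC25A31, SLC25A36 and SLC25A51. Of these 7, SLC25A25 and SLC25A28 turned from negative to positive values of 0.29 and 0.13. Over all 44 carriers, the sign differed after subtraction in 11, counting SLC25A1 and SLC25A51, which stood at 0 before it. No paired analysis was possible because each group has 1 array. Signal over background limits what can be said of the 13 carriers below the level limit.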

Other observations

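8 transcript clusters of the family stood outside the rule for members. The cluster shared by MIR621 and SLC25A15, the ornithine carrier of the urea cycle, had log2 values of 9.74 with empty vector and 9.46 with FOXK2, a difference of -0.28. The cluster shared by SLC25A52, a relative of the NAD importer, and the pseudogene SLC25A51P2 had values of 7.06 and 6.99, a difference of -0.070. The other 6 lay below the level limit. Among them the antisense gene SLC25A21-AS1 differed by 0.35, SLC25A30-AS1 by 0.35 and SLC25A5-AS1 by -0.23. The pseudogenes SLC25A3P1, SLC25A51P1 and SLC25A51P4 differed by -0.084, -0.021 and 0.16.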
